A study of Mus musculus with 36 samples.

Results

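Bmp4 and 5 genes that BMP signalling is known to switch on, Id1, Id2, Id3, Smad6 and Smad7, were followed across all libraries of a SLAM-seq study of mouse embryonic stem (mES) cells. The 6 genes were picked by symbol from 22979 genes listed in any of the 6 deposited tables, and all 6 had a row in every table, as did 18419 genes in all. Bmp4 was picked because it was among the largest rises in read count after METTL3 depletion. Its response in that line is therefore a description without a test, and the question was whether the 5 target genes followed it.

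Bone morphogenetic protein 4 is a secreted ligand of the TGF-β family. It binds pairs of type I and type II receptor kinases, which phosphorylate SMAD1, SMAD5 and SMAD9, and these enter the nucleus with SMAD4. Id1, Id2 and Id3, encoding helix-loop-helix proteins that hold E proteins off DNA, are classical direct targets, and BMP4 with LIF is known to sustain self-renewal of mES cells through Id genes. Smad6 and Smad7, encoding inhibitory SMADs, are induced by the same signal and dampen it, with Smad7 also acting in TGF-β signalling. Of the depleted proteins, METTL3 is the enzyme that deposits N6-methyladenosine (m6A) on mRNA and YTHDC1 binds m6A in the nucleus. ZCCHC8 belongs to the NEXT complex, an adaptor that brings nuclear RNA to the exosome.

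The 36 libraries came from 3 degron lines with a Cast x 129S background, each of them 1 clone, in which METTL3 (12D), YTHDC1 (Y12H) or ZCCHC8 (Z12H) carried FKBP12 with the F36V substitution, so that dTAG-13 triggers degradation of the fusion protein. All lines also had a TetOn promoter in place of the endogenous Xist promoter on the 129S allele and Bgl sequences in Xist, and all cells, Ctrl included, were given 1 µg/ml doxycycline, first for 20 h and then through a labelling pulse of 4 h. They were grown with serum and LIF, with inactivated fibroblast feeders removed by preplating. The Ctrl arm had no dTAG-13, whereas the dTAG arm received it from 2 h before doxycycline. New RNA was labelled with 500 µM 4-thiouridine (4sU), which is read as a T-to-C mismatch, and chased with 50 mM uridine for 0, 90 or 180 min. Each line, arm and chase time was a group of 2 replicates, which gave 18 groups, with 12 libraries from each line and 6 from each of its arms. The labels do not say how the 2 replicates were separated, so p-values measure the spread between these samples.

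Depth was 5274684 to 18652000 reads per library. The 10 mES cell markers, Pou5f1, Nanog and Sox2 among them, had reads in every library and summed to 2766 to 4184 CPM (counts per 1000000 reads, library sizes scaled by TMM). The 14 feeder fibroblast markers summed to 46.3 to 85.2 CPM. Among them, Fbn1 (17.6 to 39.8 CPM) and Mfap5 (7.83 to 21.5 CPM) had reads in every library. At the other end, Lum had 0 reads in 22 of 36 libraries. A degron acts on protein, so mRNA is no check of depletion, and Mettl3 mRNA differed by 0.01 on the log2 scale between arms of its own line (adjusted p 0.942 by edgeR). In the METTL3 and YTHDC1 lines the replicates of a group stood far apart, the chi-square of their counts over all genes being 20.3 to 77.9 and 26.6 to 38.5 per degree of freedom, against 2.45 to 4.5 in the ZCCHC8 line. Per the study, the wells of a biological replicate came from 1 batch of cells, so replicate numbers pair the arms within a line, and values with the replicate number as a block are given wherever they change a call of a member.

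Positions are those of build GRCm38 (annotation GENCODE M21). Bmp4 (ENSMUSG00000021835) is at chr14:46383520-46390669 on the minus strand, Id1 (ENSMUSG00000042745) at chr2:152736251-152737410 on the plus strand and Id2 (ENSMUSG00000020644) at chr12:25093799-25097140 on the minus strand. Id3 (ENSMUSG00000007872) is at chr4:136143497-136145755 on the plus strand and Smad6 (ENSMUSG00000036867) at chr9:63953076-64022059 on the minus strand. Bmp4 overlaps the opposite-strand genes Gm15217, which had 0 to 2 reads per library, and Gm15222, listed in 0 tables. The use of strand in counting is not stated, so reads of Bmp4 and of these partners cannot be told apart. The other members overlap 0 annotated genes.

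Because the question was whether targets moved with their ligand, the 250 bases before the RefSeq starts of Bmp4, Id2, Id3 and Smad6 (GRCm38.p6, 5′ to 3′ on the gene's strand) were searched on both strands for letters known from BMP-responsive elements. The windows of Id1 and Smad7 were not analysed here. The letters were the GC-rich SMAD box GGCGCC, the palindrome GTCTAGAC and the shorter CAGAC. Among 32817 promoters, 9.59% hold GGCGCC, 0.168% hold GTCTAGAC and 42.2% hold CAGAC. The windows of Bmp4 (chr14:46390670-46390919), Id2 (its unexonic part, chr12:25096254-25096342) and Smad6 (chr9:64022060-64022309) follow, with GGCGCC in capitals.
Bmp4: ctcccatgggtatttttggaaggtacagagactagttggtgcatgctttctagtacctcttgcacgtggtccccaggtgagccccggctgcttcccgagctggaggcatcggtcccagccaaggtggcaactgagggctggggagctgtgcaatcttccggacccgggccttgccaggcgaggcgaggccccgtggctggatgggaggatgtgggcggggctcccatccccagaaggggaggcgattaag
Id2: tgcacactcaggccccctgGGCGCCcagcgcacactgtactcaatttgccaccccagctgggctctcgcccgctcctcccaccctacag
Smad6: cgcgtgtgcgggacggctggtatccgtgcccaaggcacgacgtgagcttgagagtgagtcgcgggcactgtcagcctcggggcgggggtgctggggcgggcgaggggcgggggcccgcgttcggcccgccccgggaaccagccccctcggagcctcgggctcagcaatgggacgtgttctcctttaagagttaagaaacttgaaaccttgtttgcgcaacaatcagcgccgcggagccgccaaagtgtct
Id2 held 1 GGCGCC, 231 bases before the RefSeq start used. That window lies within the annotated span of Id2 given above, not upstream of the gene. Bmp4 and Smad6 held 0 matches of all 3 motifs, and Id3, whose window lies within an exon of a longer transcript, held 2 CAGAC, 167 and 68 bases before the start.

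METTL3 methylates adenosine within a short motif of which GGACT is a common form, so the match nearest the stop codon is shown for 1 GENCODE transcript of each gene but Smad7, in transcript coordinates and with GGACT in capitals. m6A was not measured in these libraries.
Bmp4-201, bases 1840 to 1864: ccctatagctGGACTtttatcttaa
Id1-202, bases 423 to 447: cggaggccggGGACTgcctgtccgc
Id2-202, bases 1190 to 1214: tggcatttggGGACTtttttttttc
Id3-201, bases 793 to 817: tgggaccctgGGACTctgggaccct
Smad6-201, bases 1439 to 1463: gcgcgccccgGGACTctggcgatcc
The match began 127 bases after the start of the stop codon in Bmp4, 18 after it in Id2 and 63 after it in Id3, all in the 3′ UTR, whereas those of Id1 and Smad6 lay before the stop codon. GGACT occurred 2.42 times per kb of Bmp4, 2.59 of Id1, 2.03 of Id2, 2.35 of Id3, 0.673 of Smad6 and 0.935 of Smad7. The median over 14171 coding genes was 1.05 per kb, and 92.3% of them held at least 1 match. Bmp4 and the Id genes thus carried more of these letters per length than 89.2% to 95.8% of genes, and Smad6 and Smad7 more than 27.0% and 42.9%.

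All 6 genes were expressed at low to moderate levels without dTAG-13. Per kb of gene length, the 18 Ctrl libraries had a lowest, median and highest level of 9.64, 13.8 and 18 CPM per kb for Smad7, 5.02, 11.2 and 16.7 for Id1, and 4.08, 7.29 and 11.8 for Id2. The corresponding levels per kb were 1.78, 4.44 and 6.96 for Id3, 2.41, 4.11 and 7.81 for Bmp4, and 0.0860, 0.621 and 0.987 for Smad6. Neighbours in this order overlapped, except that every Ctrl library had less Smad6 per kb than any of the other genes. Smad6 rested on 3 to 67 reads per library and Id3 on 33 to 192, against 227 to 1072 for Smad7 and 51 to 790 for Bmp4, so the Smad6 values carry the widest counting error. Of the 6 genes, 0 passed the edgeR or the DESeq2 test of Ctrl levels between any 2 lines, where edgeR called 2.43%, 13.6% and 30.7% of genes (METTL3 against YTHDC1, ZCCHC8 against YTHDC1 and METTL3 against ZCCHC8). At an unadjusted p under 0.05 there were 1, 1 and 0 of the 6. Replicates bore on this, since calls of Bmp4, Id1, Id2, Id3 and Smad6 appeared in fits without 1 replicate. In replicate 1 the Ctrl median of Id1 was 13.5 CPM in the ZCCHC8, 7.45 CPM in the METTL3 and 6.14 CPM in the YTHDC1 line. In the same order it was 1.94, 0.740 and 0.443 CPM for Smad6 and 8.70, 3.99 and 3.07 CPM for Id3. In replicate 2 these medians were 13.5, 13.5 and 13.6 CPM for Id1 and 2.91, 1.93 and 2.29 CPM for Smad6. For Id3 they were 5.20, 6.15 and 4.00 CPM. With the replicate number as a block, which pairs no wells between lines, Smad6 was called in both comparisons with the ZCCHC8 line, where its level was higher. In that fit edgeR called 5298 of 14427 genes for ZCCHC8 against YTHDC1 and 6717 for METTL3 against ZCCHC8.

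**Figure D1:**
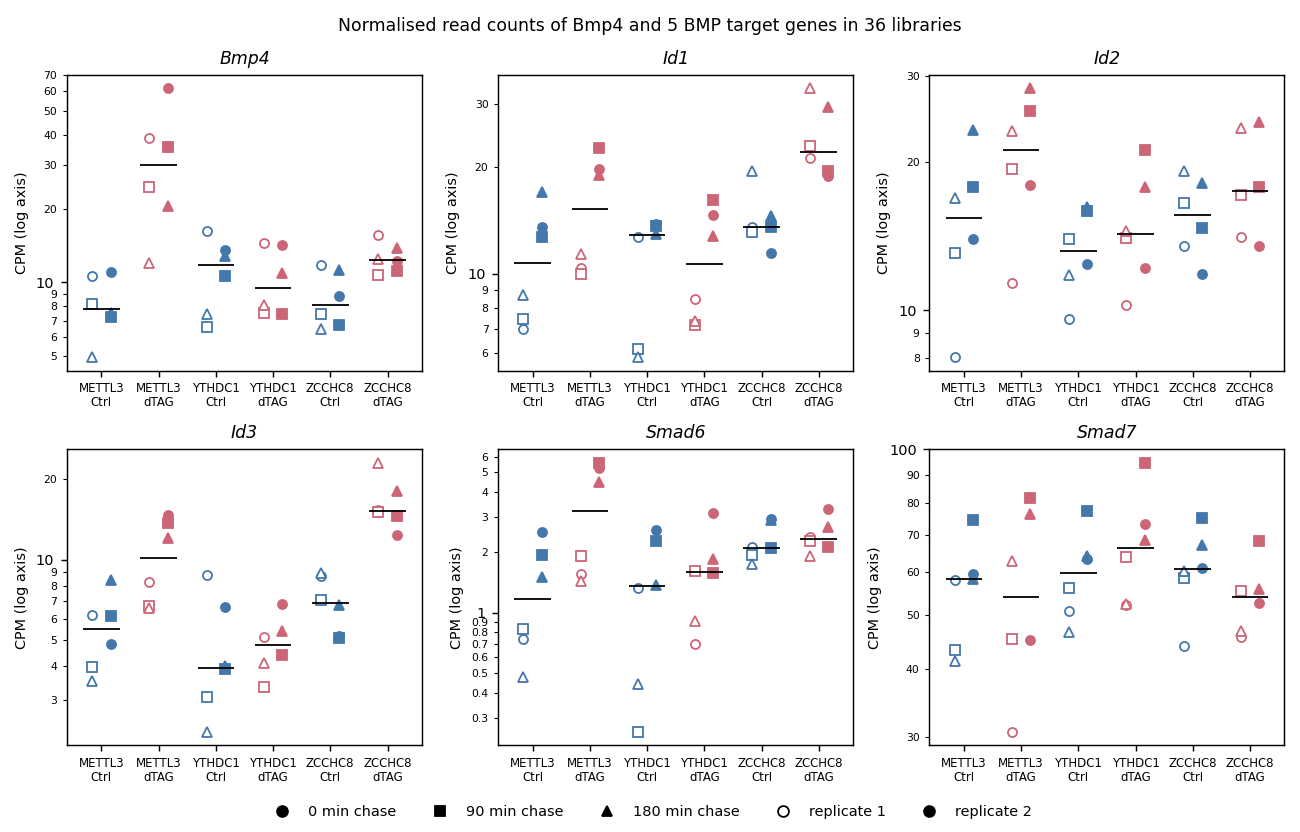
Normalised read counts (CPM, log axis) of the 6 genes in each of the 36 libraries, by line and arm, with open symbols for replicate 1, filled symbols for replicate 2, a symbol shape for each chase time and a bar at the median of 6 libraries. Bmp4 in the METTL3 line sits between 12.0 and 61.9 CPM in dTAG and between 4.97 and 11.0 CPM in Ctrl libraries, and Id3 in the ZCCHC8 line is the other gene whose arms do not overlap.

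In METTL3-depleted cells, Bmp4 was 3.69-fold higher and Id3 rose, while Id1, Id2 and Smad6 passed the test with the replicate as a block but not without it, and Smad7 passed neither. Bmp4 ran from 4.97 to 11.0 CPM with a median of 7.84 in Ctrl libraries and from 12.0 to 61.9 CPM with a median of 30.0 in dTAG libraries of the METTL3 line, which is 8.26 ± 2.28 and 32.2 ± 17.6 CPM (SD, n = 6). Every dTAG library thus lay above every Ctrl library, as it did for 4.82% of all genes, and the log2 fold change was 1.88 (SE 0.22), from which nothing is read because it chose the gene. The excess was largest at the end of the pulse, where dTAG over Ctrl was 3.63 and 5.61 in replicates 1 and 2, and was 2.99 and 4.94 at 90 min and 2.41 and 2.72 at 180 min.

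Of the 5 target genes, 1 passed the test in the METTL3 line, where 20.1% of 14413 genes did, 11.3% higher and 8.8% lower. Id3 ran from 3.53 to 8.41 CPM (median 5.50) in Ctrl and from 6.61 to 14.7 CPM (median 10.2) in dTAG libraries, and the arms overlapped. Its rise was 1.91-fold, a log2 fold change of 0.93 (SE 0.29, adjusted p 0.0406 by edgeR), and was seen in 6 of 6 pairs of the same chase time and replicate. The call, made without the replicate as a block, was fragile. It held in 4 of 12 such fits that each left out 1 library, with adjusted p from 0.0207 to 0.0923 by edgeR. The 4 were those without Ctrl 180 min replicate 2, dTAG 0 min replicate 1, dTAG 90 min replicate 1 and dTAG 180 min replicate 1, and leaving out any of the other 8 ended the call.

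Id1, Id2 and Smad6 were higher in dTAG in 6 of 6 METTL3 pairs as well, which 18.3% of genes were, but did not pass the test. Id1 ran from 6.98 to 17.0 CPM (median 10.7) in Ctrl and from 9.97 to 22.6 CPM (median 15.2) in dTAG libraries, a log2 fold change of 0.52 (SE 0.30, adjusted p 0.256 by edgeR). Id2 ran from 8.03 to 23.2 CPM (median 15.4) and from 11.4 to 28.4 CPM (median 21.2), a log2 fold change of 0.46 (SE 0.19, adjusted p 0.106 by edgeR). Both arms of both genes overlapped over most of their range. Smad6 ran from 0.481 to 2.51 CPM (median 1.17) in Ctrl and from 1.45 to 5.60 CPM (median 3.20) in dTAG libraries, a log2 fold change of 1.38 (SE 0.49, adjusted p 0.0682 by edgeR). Its pair ratios lay between 2.09 and 3.01 in all 6 pairs, the narrowest relative range next to that of Id2.

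The overlap of arms in the METTL3 line went with the replicate number. In Ctrl libraries Id1 was at 6.98 to 8.73 CPM in replicate 1 and 12.7 to 17.0 CPM in replicate 2, and Smad6 at 0.481 to 0.834 and 1.50 to 2.51 CPM. With the replicate as a block, 4 of the 5 targets passed the test, against 24.4% of genes called higher. In that fit the log2 fold changes were 0.51 for Id1 (SE 0.11, adjusted p 0.000604 by edgeR), 0.47 for Id2 (SE 0.10, adjusted p 0.000621), 0.91 for Id3 (SE 0.15, adjusted p 7.44e-05) and 1.34 for Smad6 (SE 0.17, adjusted p 3.04e-06). The sizes were close to those without the block. Without it, DESeq2 called Id3 and Smad6, where it called 1910 of 14413 genes higher. Of 12 fits without 1 library, 1 called Smad6, that without dTAG 0 min replicate 1.

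These fits count the 3 chase libraries of a replicate and arm as separate samples. With them summed, 0 of the 6 genes and 0 of 15895 genes in all passed in the METTL3 line by edgeR, with 1433 at an unadjusted p under 0.05, and the adjusted p of Id3 was 0.601. With them summed and the replicate as a block, a fit chosen after the data were seen, Id1 (log2 fold change 0.49, adjusted p 0.0466 by edgeR), Id3 (0.92, adjusted p 8.82e-05) and Smad6 (1.34, adjusted p 3.01e-06) passed and Id2 did not (0.44, adjusted p 0.0703), where 14% of genes were called higher. That fit has 4 summed libraries and leans on the spread of other genes. In bulk RNA, a change in the number of cells that express a gene cannot be told apart from a change in RNA per cell.

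Smad7 (ENSMUSG00000025880, chromosome 18) stood apart from the other targets. It ran from 41.3 to 74.3 CPM (median 58.1) in Ctrl and from 30.7 to 81.5 CPM (median 54.0) in dTAG libraries of the METTL3 line, a log2 fold change of 0.01 (SE 0.24, adjusted p 0.983 by edgeR), and 0.01 with the block (adjusted p 0.974). The ratio of dTAG to Ctrl was 0.529 and 0.760 at 0 min, 1.05 and 1.10 at 90 min, and 1.52 and 1.31 at 180 min. Smad7 was therefore lower in dTAG in both replicates at the end of the pulse and higher in both at the end of the chase. The interaction of arm and chase, 1.11 on the log2 scale (SE 0.53), had an unadjusted p of 0.0636 in edgeR and did not pass the threshold, nor did that of any gene in this line, of which 133 had an unadjusted p under 0.05.

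**Figure D2:**
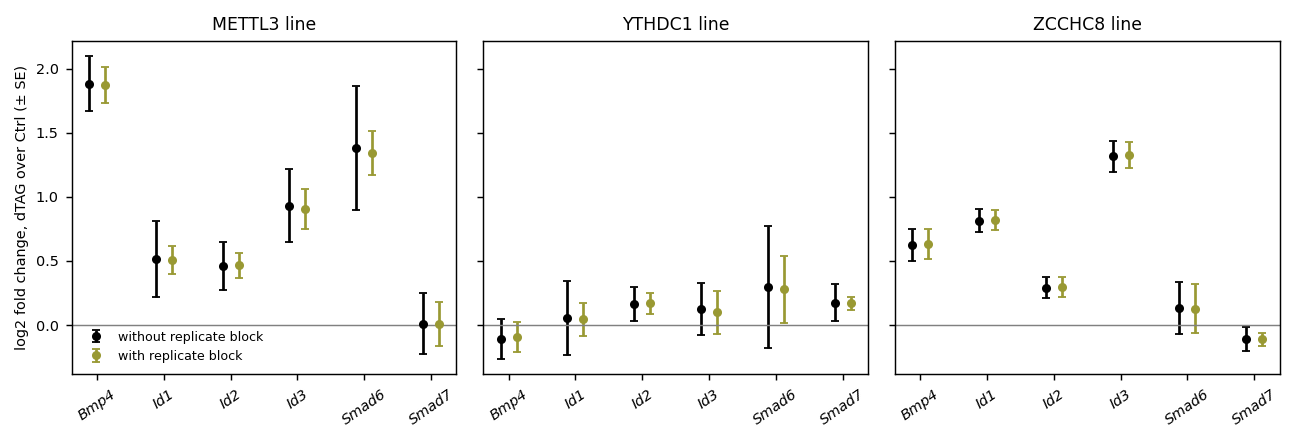
Log2 fold change of read counts, dTAG over Ctrl, with SE bars for each gene and line, in black without and in olive with the replicate number as a block. In the METTL3 line the block leaves the sizes in place and shortens the bars, for Smad6 from an SE of 0.49 to 0.17.

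In ZCCHC8-depleted cells, Bmp4 and all 3 Id genes rose, and the inhibitory Smads did not pass the test. Of the 6 genes, 4 were called higher (3 of the 5 targets), where 39.6% of 13962 genes were called, 20.1% higher and 19.5% lower, so calls were common in this line. Id3 ran from 5.12 to 8.89 CPM (median 6.92) in Ctrl and from 12.4 to 23.0 CPM (median 15.2) in dTAG libraries, a 2.49-fold rise (log2 fold change 1.32, SE 0.12, adjusted p 7.32e-09 by edgeR). Its arms did not overlap, which held for 5.13% of genes. Id1 ran from 11.5 to 19.4 CPM (median 13.5) and from 18.8 to 33.3 CPM (median 22.0), a 1.76-fold rise (log2 fold change 0.81, SE 0.09, adjusted p 1.03e-07 by edgeR). Only the highest Ctrl library of Id1 reached into the dTAG range.

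Bmp4 itself ran from 6.44 to 11.8 CPM (median 8.11) in Ctrl and from 10.7 to 15.6 CPM (median 12.3) in dTAG libraries of the ZCCHC8 line, a 1.54-fold rise (log2 fold change 0.63, SE 0.12, adjusted p 0.000263 by edgeR). Id2 ran from 11.9 to 19.2 CPM (median 15.6) and from 13.5 to 24.2 CPM (median 17.5), a log2 fold change of 0.29 (SE 0.08, adjusted p 0.00631 by edgeR). Bmp4 and the Id genes were each higher in 6 of 6 pairs, as were 14.6% of genes, with pair ratios of 1.24 to 1.94 for Bmp4, 1.43 to 2.02 for Id1, 1.04 to 1.33 for Id2 and 1.76 to 2.85 for Id3. All 4 calls held in each of 12 fits without 1 library, but that of Id2 was lost without replicate 2 (log2 fold change 0.22, adjusted p 0.223 by edgeR). Smad6, at 1.76 to 2.93 CPM (median 2.11) in Ctrl and 1.92 to 3.29 CPM (median 2.34) in dTAG libraries, had a log2 fold change of 0.13 (SE 0.20, adjusted p 0.630 by edgeR). Smad7, at 43.9 to 75.1 CPM (median 60.5) and 45.6 to 68.3 CPM (median 53.9), had one of -0.11 (SE 0.09, adjusted p 0.374 by edgeR) and was lower in dTAG in 5 of 6 pairs.

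In the YTHDC1 line, 0 of the 6 genes passed the edgeR test, although 5.25% of 14199 genes did (2.48% higher and 2.77% lower), the smallest unadjusted p among them was 0.243, and DESeq2 called 0 as well. Bmp4 ran from 6.56 to 16.1 CPM (median 11.7) in Ctrl and from 7.41 to 14.5 CPM (median 9.49) in dTAG libraries, a log2 fold change of -0.11 (SE 0.16, adjusted p 0.815 by edgeR), with 3 pairs higher and 3 lower. The targets had log2 fold changes of 0.06 for Id1 (SE 0.29), 0.17 for Id2 (SE 0.13), 0.13 for Id3 (SE 0.21), 0.30 for Smad6 (SE 0.48) and 0.17 for Smad7 (SE 0.15). The arms of all 6 genes overlapped, and 1.08% of genes had every dTAG above every Ctrl library. Smad7 was the only gene of the 6 that was higher in 6 of 6 pairs, which 13.3% of genes were. With the replicate as a block Smad7 passed the test (log2 fold change 0.17, SE 0.05, adjusted p 0.0177 by edgeR), where 13.2% of genes were called higher.

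**Figure D3:**
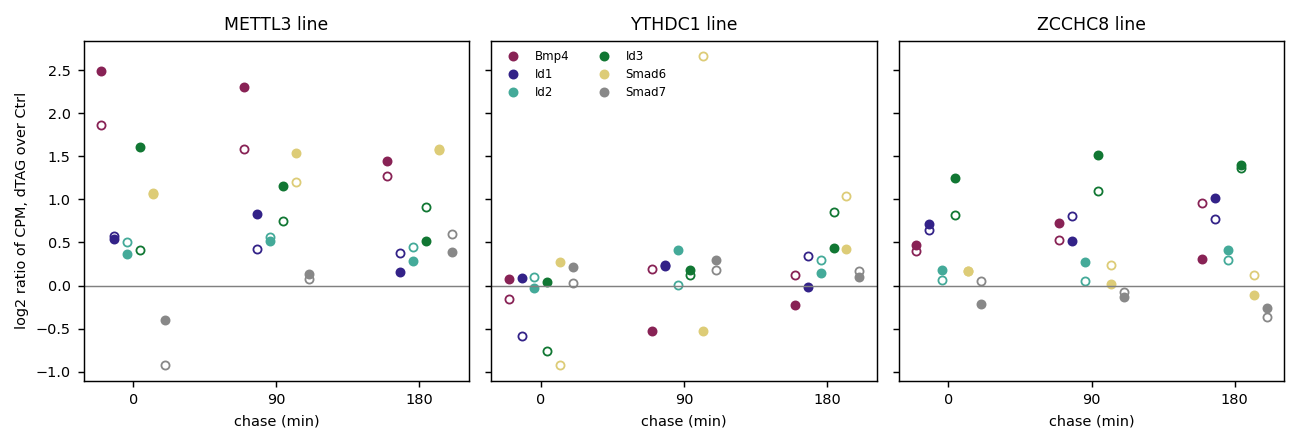
Ratio of dTAG to Ctrl CPM (log axis) for each pair of libraries of the same chase time and replicate, by gene and line, with a line at equality. In the METTL3 line the Bmp4 ratio runs from 5.61 down to 2.41 over the chase, and Smad7 crosses from 0.529 at 0 min to 1.52 at 180 min.

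Responses were then compared between lines, as an interaction over all 36 libraries. Bmp4 responded more strongly in the METTL3 line than in the YTHDC1 line by 1.98 and than in the ZCCHC8 line by 1.31 on the log2 scale, given as descriptions. The Id3 response was larger in the ZCCHC8 than in the YTHDC1 line by 1.11 (SE 0.33, adjusted p 0.0216 by edgeR), the 1 call among the 6 genes there, where 14.4% of genes were called and 7.2% called higher. That of Bmp4 was larger by 0.67 (adjusted p 0.0829 by edgeR) and that of Id1 by 0.70 (adjusted p 0.241) in the same comparison. With the replicate as a block within each line, both passed there, Bmp4 at 0.66 (adjusted p 0.0150 by edgeR) and Id1 at 0.72 (adjusted p 0.000354), against 13.7% of genes called higher. Between the METTL3 and YTHDC1 lines, 0 of the 5 targets passed the edgeR or the DESeq2 test, with 1 at an unadjusted p under 0.05, and edgeR called 20.6% of genes. Their differences were 0.44 for Id1, 0.27 for Id2, 0.79 for Id3, 1.07 for Smad6 and -0.18 for Smad7 (edgeR adjusted p from 0.0894 for Id3 to 0.684 for Smad7). With the block, 4 of them passed, Id1 at 0.44 (adjusted p 0.0157 by edgeR), Id2 at 0.28 (adjusted p 0.0371), Id3 at 0.79 (adjusted p 0.00328) and Smad6 at 1.05 (adjusted p 0.00341), against 19.5% of genes called higher. Between the METTL3 and ZCCHC8 lines, where edgeR called 23.7% of genes, 0 targets passed by edgeR or DESeq2, with 1 at an unadjusted p under 0.05. That 1 was Smad6, whose response was larger in the METTL3 line by 1.28 (adjusted p 0.143 by edgeR). With the block Smad6 passed there (1.25, adjusted p 0.000555 by edgeR), against 22.3% of genes called higher.

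Read counts of Bmp4 fell as the chase proceeded. Its median over 4 libraries of the METTL3 line was 24.9, 16.3 and 9.75 CPM at 0, 90 and 180 min, a log2 change of -1.27 from 0 to 180 min with arm as a term (SE 0.26, adjusted p 0.00986 by edgeR), where 5.84% of genes were called lower. Both arms fell, from 10.7 and 11.0 to 4.97 and 7.51 CPM in Ctrl replicates 1 and 2 and from 38.7 and 61.9 to 12.0 and 20.4 CPM in dTAG. In Ctrl libraries alone the change was -0.80 and did not pass (adjusted p 0.226 by edgeR). Bmp4 also fell in the YTHDC1 line, with medians of 14.4, 7.45 and 9.49 CPM (log2 change -0.58, SE 0.19, adjusted p 0.0300 by edgeR, 18% of genes called lower). In the ZCCHC8 line the medians were 12.0, 9.05 and 11.8 CPM and the change of -0.15 did not pass (SE 0.15, adjusted p 0.408 by edgeR).

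Id2 went the other way. Its median rose from 12.7 to 18.6 and 23.2 CPM in the METTL3 line (log2 change 0.80, SE 0.23, adjusted p 0.0364 by edgeR, 10.3% of genes called higher) and from 13.5 to 16.8 and 21.3 CPM in the ZCCHC8 line (0.68, SE 0.10, adjusted p 3.56e-06, 30.7% of genes called higher). In the YTHDC1 line it was 11.2 CPM at 0 min and 15.4 CPM at 180 min, with a log2 change of 0.43 (SE 0.17, adjusted p 0.0550 by edgeR) that passed with the replicate as a block (adjusted p 0.000567, 33.7% of genes called higher). Id1 rose over the chase in the ZCCHC8 line (log2 change 0.57, SE 0.11, adjusted p 8.42e-05 by edgeR), and Id3 rose there (0.45, SE 0.15, adjusted p 0.0126) and fell in the YTHDC1 line (-0.81, SE 0.25, adjusted p 0.0213, 18% of genes called lower). With the block, Id1 (-0.39, adjusted p 0.0309 by edgeR) and Smad6 (-0.76, adjusted p 0.0376) were also lower at 180 min in the YTHDC1 line, where 33.4% of genes were called lower. Smad7 passed in no line without a block, and with it rose in the ZCCHC8 line (0.17, adjusted p 0.0226 by edgeR, 32.3% of genes called higher). The 0 min libraries had no time in uridine medium, so the medium and the chase time cannot be told apart in this contrast.

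All 6 genes were strongly labelled by the pulse. GRAND-SLAM assigns each gene a share of new RNA, here the maximum of its posterior (MAP). Over the 12 libraries at 0 min, the new share had a median of 87.4% for Bmp4 (73.4% to 94.9%), 92.0% for Id1 (82.3% to 96.9%), 96.9% for Id2 (88.9% to 100%), 95.7% for Id3 (83.7% to 100%), 99.3% for Smad6 (74.4% to 100%) and 93.1% for Smad7 (79.8% to 99.5%). The median over all genes lay between 53.2% and 63.5% by line and arm, so most of the RNA of these 6 genes was made within the pulse of 4 h.

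The excess of Bmp4 in METTL3-depleted cells was present in new and in older RNA. New Bmp4 RNA at the end of the pulse, the new share times CPM, was 8.20 and 9.55 CPM in Ctrl and 28.4 and 46.6 CPM in dTAG replicates 1 and 2, ratios of 3.47 and 4.88. Unlabelled Bmp4 was 2.47 and 1.49 CPM in Ctrl and 10.3 and 15.3 CPM in dTAG. In the same line, new Id1 had ratios of 1.33 and 1.55, new Id2 of 1.43 and 1.25, new Id3 of 1.35 and 3.00, new Smad6 of 2.83 and 2.00, and new Smad7 of 0.541 and 0.730. In the ZCCHC8 line the ratios were 1.39 and 1.47 for new Bmp4, 1.55 and 1.54 for new Id1, and 1.71 and 2.51 for new Id3. New RNA of Bmp4, Id1 and Id3 was thus higher in dTAG in both replicates of both lines, that of Id2 and Smad6 was higher in both replicates of the METTL3 line, and new Smad7 was lower in both replicates of that line. With 2 replicates per arm at 0 min these ratios were not tested.

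The new share fell further in these genes than in most. The share left, the new share at 180 min as a percentage of that at 0 min, had a median over 12 replicate and arm combinations of 33.3% for Bmp4 (14.9% to 64.6%), 31.3% for Id1 (6.30% to 41.8%), 30.5% for Id2 (18.5% to 48.6%), 29.1% for Id3 (18.8% to 39.2%) and 24.8% for Smad7 (12.1% to 44.3%). Over all genes with at least 20 reads in every library the median in Ctrl and dTAG was 78.9% and 81.6% for METTL3, 74.3% and 70.6% for YTHDC1, and 97.5% and 97.7% for ZCCHC8. At most 5% of genes had less share left than a given member in a given line and arm, except for Bmp4 in METTL3 dTAG cells (22.8%) and Id3 in YTHDC1 dTAG cells (9.67%). Smad6 ran from 8.21% to 98.6% (median 45.7%), on counts too low for the read minimum. The share falls through decay of labelled RNA and also through synthesis of unlabelled RNA.

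In the METTL3 line, Bmp4 kept more of its new share in dTAG than in Ctrl cells. The share fell in Ctrl from 76.8% and 86.5% at 0 min to 24.1% and 24.9% at 180 min, and in dTAG from 73.4% and 75.3% to 30.7% and 48.6%. The 90% credible interval at 180 min was 15.4% to 36.1% and 16.3% to 36.4% in Ctrl and 23.4% to 39.3% and 42.8% to 54.6% in dTAG, so the arms overlapped in replicate 1 and not in replicate 2. The share left was 31.3% and 28.7% in Ctrl and 41.8% and 64.6% in dTAG, a slope difference of 0.26 per h on the log2 scale, given as a description. Wider gaps between arms were seen for Smad6 in the METTL3 line, with means of 81.7% left in Ctrl and 28.8% in dTAG on low counts, and, as a ratio, for Id1 in the YTHDC1 line, with 28.8% and 11.4%. The amount of labelled Bmp4 (CPM) left at 180 min was 14.6% and 19.6% in Ctrl and 12.9% and 21.3% in dTAG, so on that scale the arms overlapped.

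For the targets, a difference in label loss between arms was not called in any line. With at least 100 reads in every library, the limma test covered Smad7 in each line and Id2 in the YTHDC1 line. The slope difference of Smad7 was -0.17 per h (SE 0.16, adjusted p 0.992 by limma) in the METTL3 line, where 0.471% of 8289 genes were called, negative meaning faster loss in dTAG. It was -0.0032 (SE 0.08) for YTHDC1 and 0.04 (SE 0.09) for ZCCHC8. In the last 2 lines 0 genes were called by limma, with 195 and 147 at an unadjusted p under 0.05. With at least 20 reads, Id1, Id2, Id3 and Smad7 were tested in each line, and Bmp4 in the YTHDC1 and ZCCHC8 lines, with 0 calls and 1 unadjusted p under 0.05, that of Id1 in the YTHDC1 line at 0.0476 (0.044% of 11369 genes in the METTL3 line and 0 genes in the others). In that fit the METTL3 slope differences were -0.03 for Id1 (SE 0.11), -0.13 for Id2 (SE 0.12) and 0.11 for Id3 (SE 0.16), each near or below its error. Replicates of Smad7 in METTL3 dTAG cells differed, with 12.1% and 28.1% of the share left.

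**Figure D4:**
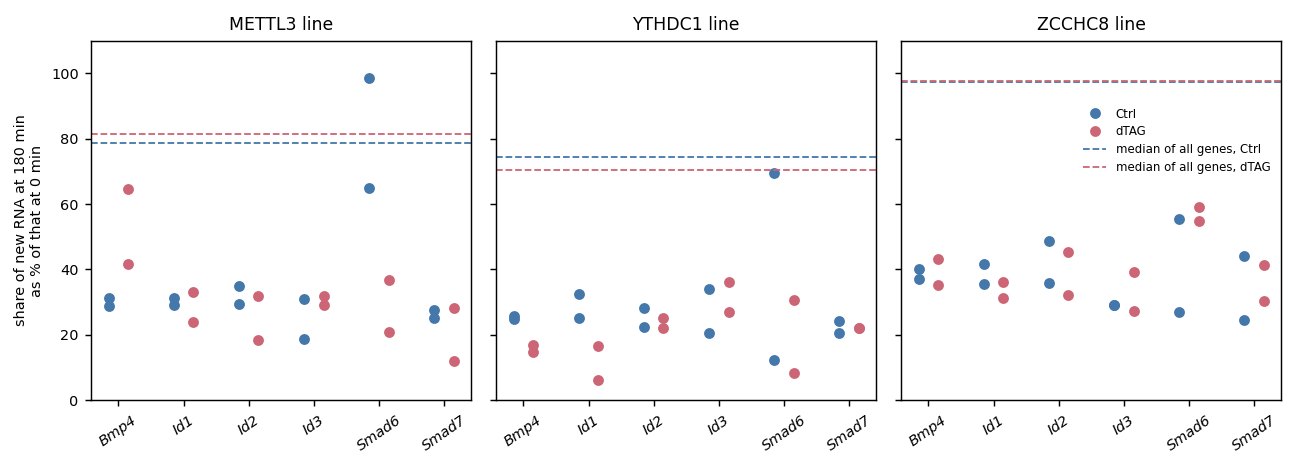
Share of new RNA left at 180 min, as a percentage of that at 0 min, for each gene, line, arm and replicate, with the median over all genes marked for each line and arm. Of 72 points, 48 lie between 20% and 40%, below the all-gene medians of 70.6% to 97.7%. Above 40% lie Bmp4 in METTL3 dTAG cells (41.8% and 64.6%) and points of Bmp4, Id1, Id2 and Smad7 in the ZCCHC8 line. Points of Smad6 lie above 40% in every line, up to 98.6% on low counts.

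The rest of the pathway was read from lists of ligands, receptors, transducers, antagonists, further target genes and E proteins, 92 genes in all. Of these, 66 were tested in the METTL3 line, where 12 rose and 2 fell, against 11.3% and 8.8% of all genes. Their median log2 fold change was 0.19, against 0.01 over all genes tested. Bmp4, picked for its rise, and Id3 count among the 12, and the lists were chosen with earlier results of these data known. The counts and the median are therefore descriptions. Beside Bmp4, 3 of 8 ligands rose, and beside the members 5 of 15 target genes rose and 0 fell, with a median of 0.44. Of 11 receptors and coreceptors 0 passed the edgeR test, with 4 at an unadjusted p under 0.05 and 2 called by DESeq2, and of 9 signal transducers 1 passed and fell. With the replicate as a block, 24.4% of all genes were called higher and 24.1% lower. In that fit 5 of the 8 ligands beside Bmp4 rose and 0 fell, 10 of 20 target genes rose and 3 fell, the 5 members among them included, and 5 receptors rose and 3 fell.

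Among the genes that moved in the METTL3 line was Bambi, a pseudoreceptor that is itself induced by BMP and blocks the type I receptor. Its median went from 18.4 CPM in Ctrl to 46.1 CPM in dTAG libraries, a log2 fold change of 1.26 (SE 0.12, adjusted p 0.000113 by edgeR). Bmp6, a second BMP ligand, went from 2.31 to 5.78 CPM (1.22, SE 0.21, adjusted p 0.00252 by edgeR), and Msx1, a homeobox target of BMP, from 0.281 to 0.841 CPM (1.40, SE 0.38, adjusted p 0.0244). Msx1 lay below Smad6 (Ctrl median 1.17 CPM in this line), so its value rests on few reads. Tab1, an adaptor of the kinase TAK1, fell from 19.3 to 8.55 CPM (-0.96, SE 0.28, adjusted p 0.0309), as did Twsg1, a secreted BMP modulator, from 82.2 to 61.9 CPM (-0.32, SE 0.09, adjusted p 0.0334). The further genes of the ligand list that rose were Gdf3 and Gdf9, so Bmp6 was the only riser beside Bmp4 with a BMP name. Those of the target list were Id4, Msx2 and Hey1.

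In the ZCCHC8 line the pathway genes went both ways, with 14 higher and 16 lower of 64 tested. Over all genes 20.1% were called higher and 19.5% lower there. The median log2 fold change of the pathway genes was -0.01. Tfap2a, a transcription factor of surface ectoderm and neural crest, went from a median of 0.445 to 2.12 CPM (2.44, SE 0.33, adjusted p 2.23e-06 by edgeR), Gata2 from 4.32 to 7.13 CPM (0.91, SE 0.15, adjusted p 2.41e-05) and Tfap2c from 48.4 to 65.3 CPM (0.45, SE 0.07, adjusted p 1.06e-05). In Ctrl libraries Tfap2a lay below Smad6 (median 2.11 CPM in this line), so its rise starts from few reads. Tab1 fell here as well, from 28.1 to 17.6 CPM (-0.56, adjusted p 0.000535 by edgeR), as did the SMAD cofactor gene Zfp423 from 60.8 to 45.2 CPM (-0.48, adjusted p 2.41e-05) and the E protein gene Tcf12 from 38.4 to 25.6 CPM (-0.47, adjusted p 2.09e-05). Of the 9 transducers 4 passed, Smad1, Smad5, Tab1 and Xiap, and all 4 fell, and of 11 receptors 1 rose and 3 fell. In the YTHDC1 line 0 of 63 pathway genes passed the edgeR test, with 9 at an unadjusted p under 0.05 and 1 called by DESeq2. With the block, 2 of 18 target genes rose there and 3 fell, against 13.2% and 14.1% of all genes.

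Markers of other lineages moved in the same libraries as the members. Among them, 2 of 5 tested mesoderm and primitive streak markers rose in the METTL3 line, Eomes and Kdr, against 11.3% of all genes. The 8 markers of the list summed to 6.31 to 13.2 CPM in Ctrl and 13.7 to 36.4 CPM in dTAG libraries. This sum rests largely on Eomes, which reached 24.1 CPM over all libraries. The highest level was 6.12 CPM for T and at most 2.89 CPM for the other markers of that list. In the ZCCHC8 line, 5 of 6 tested trophoblast markers rose, against 20.1% of all genes. The 9 of that list summed to 98.4 to 112.6 CPM in Ctrl and 127.4 to 154.3 CPM in dTAG libraries. Tfap2c was the largest part of this sum, with a median of 50.7 CPM over all libraries, against 19.0 CPM for Krt8, the next. Conversely, 1 of 6 tested trophoblast markers rose in the METTL3 line and 1 of 4 mesoderm and primitive streak markers in the ZCCHC8 line. In the YTHDC1 line edgeR called 0 of 6 tested in each list. There 2 trophoblast and 1 mesoderm and primitive streak markers had an unadjusted p under 0.05, and DESeq2 called 0 and 1. Eomes stands in both lists, and Tfap2c among the BMP targets too. Of primitive endoderm markers, 3 rose and 1 fell of 8 tested in the METTL3 line, and 3 rose and 2 fell of 9 in the ZCCHC8 line. Of 7 feeder fibroblast markers edgeR called 0 in the METTL3 and YTHDC1 lines, with 1 at an unadjusted p under 0.05 in each and 0 and 1 called by DESeq2, and 1 in the ZCCHC8 line (Col5a2). Of 10 mES cell markers, 3 rose and 1 fell in the ZCCHC8 line. EdgeR called 0 of them in the METTL3 and YTHDC1 lines, with 2 at an unadjusted p under 0.05 and 1 called by DESeq2 in each. With the block, 4 of the 5 mesoderm and primitive streak markers rose in the METTL3 line, and 1 feeder marker rose and 1 fell. In that fit 24.4% of all genes were called higher and 24.1% lower. Whether cells of other types were present, and whether they contribute to the changes of Bmp4 and its targets, was not tested.

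Over all 36 libraries, the genes whose log2 CPM was most like that of Bmp4 among 13629 genes were Hpdl (Pearson r 0.911) and Eomes, a T-box factor of the primitive streak and trophoblast (0.883). The libraries share lines and arms and include those of the METTL3 line whose rise chose Bmp4. These values therefore describe the pattern and are not tested. Medians of Hpdl in the METTL3 line went from 3.05 to 13.5 CPM and those of Eomes from 3.33 to 13.7 CPM. The targets ranked lower, with Smad6 at rank 715 (r 0.542) and Id3 at 789 (0.528) of 13629 genes. Id1 was at 2109 (0.337), Id2 at 4733 (0.0959) and Smad7 at 9628 (-0.233).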

How the data were processed

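Expression and labelling were taken from 6 tables, 1 per line and replicate. The authors removed reads from ribosomal RNA, aligned the rest to mm10 with STAR 2.5.2b (unique, end to end, with a mismatch limit) and ran GRAND-SLAM, whose version and use of strand are not given in the sources used here. A mismatch limit can remove heavily converted reads. The deposited read counts are raw counts per gene. The deposited new-to-total ratio is a fraction, estimated per table by the authors and given with its posterior mean and quantiles. Conversion and coverage sums, deposited per library, served only for a T-to-C rate that is not printed. A further 180 columns of per-library values were not used, and 252 were. A gene absent from a table was counted as 0 in its libraries.

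Groups and replicate numbers came from the labels. Members and gene lists were chosen with earlier results of these data known. All members were named, with the 3 largest rises and falls per line among called pathway genes that changed alike in 6 of 6 pairs, the 3 genes most like Bmp4 (the third is not reported here), and the tagged genes. Other pathway or marker genes were named after their values were seen, to account for a count.

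Read counts were tested per line with edgeR 4.0.16 (TMM scaling, its filterByExpr filter, the robust quasi-likelihood test, and chase time or arm as a factor), label loss with limma 3.58.1 (log2 MAP ratio, arm by chase hours, at least 100 reads and a ratio of 0.02 in every library), both with Benjamini-Hochberg adjustment over all genes and a threshold of 0.05. All SEs are of log2 values. Correlation of the deviations of same-numbered Ctrl and dTAG libraries from their group means at 0, 90 and 180 min was 0.459, 0.669 and 0.634 for METTL3, 0.477, 0.559 and 0.509 for YTHDC1, and 0.106, 0.107 and 0.093 for ZCCHC8. Numbers were taken as pairs within every line, because the study drew the wells of a replicate from a single batch of cells. Alternatives were DESeq2 1.42.0, no filter, the replicate block, summed chase libraries, each replicate alone, other label minimums, the posterior mean and Ctrl libraries alone, and, added after the data were seen, each library left out and summed libraries with the block. The tests were checked on simulated data. Fits ran in R 4.3.3, tables and figures in Python 3.11.15 with pandas 2.3.3, numpy 2.4.6 and matplotlib 3.10.9.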

Additional observations from a re-analysis of the deposited data

Results flagged for a closer look

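The response of Id3 to dTAG-13 differed between lines by a test of the difference itself. It was larger in the ZCCHC8 than in the YTHDC1 line by a log2 difference of 1.11 (SE 0.33), with an adjusted p of 0.0216 over 15105 genes in edgeR, from a log2 fold change of 1.32 in the former, higher in 6 of 6 pairs, and 0.13 in the latter, higher in 5 of 6. Groups of 2 replicates were too small to look for outlying samples.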

How the results depend on the processing

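The 5 target genes were refitted under each alternative, and the number past the threshold is given first. In the METTL3 line this number was 1, and it was 2 with DESeq2, 4 with the replicate block, 0 with the chase libraries summed, 3 with them summed and blocked, 4 and 4 without replicate 1 and without replicate 2, and 0 to 2 in fits without 1 library, the last and the summed and blocked fit being chosen after the data were seen. In the YTHDC1 line it was 0, and 1 with the block, summed or not, and 0 to 1 without 1 replicate. In the ZCCHC8 line it was 3, and 2 to 3 under 19 alternatives, Id2 being lost without replicate 2 and with summed libraries, and the block changed no call. Over the chase it was 1 in the METTL3 line and 0 in Ctrl libraries alone, 1 in the YTHDC1 line and 4 with the block, 2 to 3 without 1 replicate and 0 in Ctrl libraries alone, and 3 in the ZCCHC8 line, 4 with the block (Smad7 added) and 1 in Ctrl libraries alone. For label loss in the METTL3 line it was 0, and 1 without replicate 2 (Smad7, -0.40 per h). For the difference between the METTL3 and YTHDC1 lines it was 0, 4 with the block and 0 to 3 without 1 replicate, for ZCCHC8 against YTHDC1 1, 2 with the block and 2 without either replicate, and for METTL3 against ZCCHC8 0, 1 with the block and 0 to 1 without 1 replicate. Ctrl levels between lines gave 0 in all 3 comparisons. METTL3 against YTHDC1 gave 0 to 1 without 1 replicate. ZCCHC8 against YTHDC1 gave 1 with the block and 0 to 4 without 1 replicate. METTL3 against ZCCHC8 gave 1 with the block and 1 to 3 without 1 replicate. Of single genes, 1 value reversed, the Id2 level in Ctrl of the METTL3 against the ZCCHC8 line, which ran from -0.39 to 0.31 without 1 replicate, 0.31 being the fit without replicate 1. Of the other alternative values 316 kept their call, 51 gained and 12 lost one. Beside the changes given, the block changed no other call of a member. Fits without 1 replicate rest on a single replicate of each line and arm, so they do not measure the spread between replicates. The causes were not tested.

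Over all genes, calls in the METTL3 line numbered 2898, 6994 with the block, 0 with summed libraries and 7472 and 5717 without replicate 1 and 2, in the YTHDC1 line 746, 1156 with DESeq2, 3875 with the block, 0 summed, 4557 summed and blocked and 3555 and 1335, and in the ZCCHC8 line 5533 and 3409 without replicate 2. Over the chase they were 2322, 6812 with the block and 0 in Ctrl alone in the METTL3 line and 5821, 9539 with the block and 419 in Ctrl alone in the YTHDC1 line. Counts of 3 to 67 reads limit what can be seen of Smad6, and at the main read minimum label loss could be tested for Smad7 in each line and Id2 in the YTHDC1 line.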
